A study of Mus musculus with 4 samples.

Results

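The transcripts described here encode 8 transcription factors of naive and stem-like T cells, Tcf7, Lef1, Satb1, Bach2, Foxp1, Foxo1, Myb and Ets1. They were listed by name with earlier results of these data known, with no value as a criterion, and each symbol matched 1 row of the 27998 genes measured. The data were single-cell 3′ RNA counts of T cells enriched from the blood of C57BL/6 mice, 6 to 8 weeks old at the start and, by the study's methods, female, which all carried a subcutaneous MC-38 colon carcinoma. Blood was taken on day 18 of tumor growth from 4 mice, 1 library each, so that mouse, library and treatment cannot be told apart. The untreated mouse received no antibody. The PDL1 mouse received anti-PD-L1, which blocks the ligand of the checkpoint receptor PD-1, on days 10, 13 and 17. The OX40 mouse received agonistic anti-OX40 on day 7, which by the study's methods was given together with CpG, an oligonucleotide that stimulates innate cells. The PDOX mouse received both regimens.

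Naive T cells hold the loci of effector genes closed and recirculate through lymph nodes, and the products of these genes are known for keeping that state. Tcf7 encodes TCF1 and Lef1 its relative LEF1, HMG-box factors that bind the same DNA letters and recruit either beta-catenin or Groucho co-repressors. Satb1 organises chromatin loops in T cells, Bach2 competes with AP-1 factors and restrains effector differentiation, Foxp1 enforces quiescence, and Foxo1 drives genes of lymph node homing and survival. Myb is known for self-renewal of progenitors and of stem-like CD8 T cells, and Ets1 for T cell development and for expression in mature lymphocytes in general. In antigen-experienced T cells most of these factors are known to be lower, while Id2, Zeb2 and related effector factors are higher.

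On the mouse build GRCm38.p6 the genes lie at chr11:52246527-52283383 (Tcf7), chr3:131110297-131224357 (Lef1), chr17:51736187-51833290 (Satb1), chr4:32238413-32586109 (Bach2), chr6:98925342-99522746 (Foxp1), chr3:52268337-52350109 (Foxo1), chr10:21124930-21160984 (Myb) and chr9:32636241-32757820 (Ets1), and all 8 are protein-coding. RefSeq start sites on the same build gave 17 windows of the 250 bases before a start for 7 of the 8 genes, and none was at hand for Ets1. Because several members are themselves DNA-binding factors, the windows were searched on both strands for short core letters of their families. The TCF/LEF letters CTTTGA stood in 3 of the 17 windows and in 13.8% of 32851 windows of all genes. The ETS letters CGGAAG stood in 2 (13.6% of all windows) and the MYB letters CAACNG in 2 (29.3%), while the FOX letters GTAAACA (3.17%) and the BACH letters TGANTCA (6.75%) stood in none. The 3 windows with a TCF/LEF match are shown 5′ to 3′ on the gene's strand, with the matched letters in capitals, here always TCAAAG, the reverse complement of the letters searched. Besides these, the capitals at the end of the Bach2 window mark the ETS letters and the second capitals in the Foxp1 window the MYB letters, both as reverse complement. They belong to the fourth Lef1 start (chr3:131156044-131156293, plus strand), the Bach2 start (chr4:32417185-32417434, plus strand) and the second Foxp1 start (chr6:99266516-99266765, minus strand), all inside the span of their own gene.
Lef1: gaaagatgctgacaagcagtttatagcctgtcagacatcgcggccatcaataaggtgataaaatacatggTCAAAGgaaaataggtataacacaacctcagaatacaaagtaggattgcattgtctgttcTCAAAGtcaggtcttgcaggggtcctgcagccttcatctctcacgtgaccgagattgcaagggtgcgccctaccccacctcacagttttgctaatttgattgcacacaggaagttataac
Bach2: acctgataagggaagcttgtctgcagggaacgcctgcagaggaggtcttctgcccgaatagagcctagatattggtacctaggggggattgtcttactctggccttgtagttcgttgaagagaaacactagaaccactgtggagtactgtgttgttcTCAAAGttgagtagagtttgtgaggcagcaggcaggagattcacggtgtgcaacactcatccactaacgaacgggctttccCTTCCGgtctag
Foxp1: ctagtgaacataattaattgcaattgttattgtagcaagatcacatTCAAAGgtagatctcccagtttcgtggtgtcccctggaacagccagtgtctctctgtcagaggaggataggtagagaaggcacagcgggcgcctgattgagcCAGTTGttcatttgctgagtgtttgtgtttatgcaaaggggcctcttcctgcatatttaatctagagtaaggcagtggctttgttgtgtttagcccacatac
A match is a description of the letters and not a bound site, and counts made from the 3′ end of a transcript do not show which start was used.

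Cells with at least 200 detected genes were kept, which left 784, 1446, 1559 and 1510 cells in the untreated, PDL1, OX40 and PDOX libraries, with a median of 1434.5 to 1618 unique molecular identifiers (UMIs, each standing for 1 captured transcript) per cell. The untreated library held 7.99% hemoglobin UMIs against 0.344% to 1.70% in the others, and levels are therefore given as UMIs per 10000 UMIs after hemoglobin, mitochondrial and ribosomal protein genes were left out. Pairs of libraries shared 1 to 6 cell barcodes. T cells were gated on a Cd3 chain and split by Cd8a or Cd8b1 against Cd4 into 2085 CD8 and 862 CD4 cells. Kept cells outside these and the other gates entered no level or share of cells given below. Of 4233 Tcf7 UMIs in all kept cells, 1850 lay in the gated CD8 and 802 in the gated CD4 cells. Cells with at least 1 UMI of S100a4, a calcium-binding protein of motile effector and memory cells, or Gzma, a cytotoxic granule protease, are called marked, and all others unmarked. These 2 genes define the split and are no result of it. Lck, a kinase of T cells, stood at 10.8 UMIs per 10000 in unmarked and 11.9 in marked CD8 cells. It stood at 7.38 in the NK, 1.12 in the B and 0.565 in the monocyte gate.

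Marked CD8 cells held less of 6 of the 7 members tested. Lef1, Satb1 and Tcf7 fell the most, followed by Foxp1, Bach2 and Foxo1, whereas Ets1 did not pass the test and Myb had too few UMIs for one. The test was edgeR's quasi-likelihood test on the summed counts of each subset in each library, with the library as a block and Benjamini-Hochberg adjustment over 5325 genes. Among all these genes 8.6% were called lower and 9.6% higher at an adjusted p under 0.05. The median log2 fold change of the 7 members was -0.996, against -0.02 over all genes tested. Of transcripts high in the B, NK or monocyte gates, Cd74 stood at 2.21 UMIs per 10000 in marked and 0.912 in unmarked CD8 cells. Tyrobp stood at 0.840 and 0.112, and Lyz2 at 0.566 and 1.27. Which cells gave these UMIs, and their part in the result, was not tested.

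Tcf7 stood at 7.49, 6.36, 5.56 and 5.54 UMIs per 10000 in unmarked CD8 cells of the untreated, PDL1, OX40 and PDOX libraries, and at 3.92 (14 UMIs), 2.93, 1.96 and 1.57 in the marked cells of the same libraries. The lowest unmarked library lay above the highest marked one, and within both subsets the levels went down from untreated to PDOX. The difference was -1.33 ± 0.12 on the log2 scale (SE, n = 4 libraries; edgeR adjusted p = 9.2e-12).

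Lef1, the factor with the largest change in CD8 cells among the 7, went from 9.63, 9.04, 8.03 and 6.46 UMIs per 10000 in unmarked to 4.21, 2.405, 2.41 and 2.002 in marked CD8 cells, in the same order of libraries. The groups did not overlap, and the PDOX library was the lowest in each. Its log2 fold change was -1.64 ± 0.12 (SE, n = 4; edgeR adjusted p = 7.2e-15).

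Satb1, the chromatin organiser, gave 5.86, 5.28, 5.02 and 4.14 UMIs per 10000 in unmarked and 3.92, 2.004, 1.88 and 0.892 in marked cells. The untreated marked value rests on 14 UMIs in 19 cells and lay close below the lowest unmarked library. The log2 fold change was -1.44 ± 0.14 (SE, n = 4; edgeR adjusted p = 4.3e-10).

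Among the forkhead factors, Foxp1 stood at 5.99, 4.27, 5.06 and 4.30 UMIs per 10000 in unmarked against 2.24, 2.62, 2.35 and 1.69 in marked CD8 cells, without overlap and with a log2 fold change of -0.996 ± 0.13 (SE, n = 4; edgeR adjusted p = 3.9e-08). Foxo1 differed less, with 1.61, 1.64, 1.72 and 1.55 in unmarked and 1.68 (6 UMIs), 1.05, 0.897 and 0.965 in marked cells. Here the untreated library went the other way and the groups overlapped. The log2 fold change of Foxo1 was -0.61 ± 0.18 (SE, n = 4; edgeR adjusted p = 0.015), and it missed the threshold without the OX40 (adjusted p = 0.20), the PDL1 (0.060) or the PDOX library (0.056) and with DESeq2 (0.12).

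Bach2 was a low transcript, at 0.793, 0.780, 0.700 and 0.483 UMIs per 10000 in unmarked CD8 cells and at 0.339, 0.336 and 0.338 in the marked cells of the PDL1, OX40 and PDOX libraries, which rest on 11, 12 and 14 UMIs. In the untreated library it was not seen among 35671 UMIs of marked cells, which allows up to 0.841 per 10000 (3 UMIs; counting error only), a limit above the unmarked level. The log2 fold change was -0.94 ± 0.27 (SE, n = 4; edgeR adjusted p = 0.011), with an adjusted p of 0.17 without the OX40 library, 0.13 without the PDL1 library and 0.11 with DESeq2.

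Ets1 had the smallest fold change of the 7, with 7.73, 6.89, 7.30 and 7.96 UMIs per 10000 in unmarked and 8.13, 5.83, 6.59 and 6.15 in marked CD8 cells. The groups overlapped, and marked cells were lower in 3 of 4 libraries. The log2 fold change was -0.14 ± 0.11 (SE, n = 4; edgeR adjusted p = 0.44). Myb gave 37 UMIs in all profiles used, of which 3, 10, 9 and 5 came from unmarked CD8 cells of the untreated, PDL1, OX40 and PDOX libraries and 0, 2, 1 and 0 from marked ones. A difference in Myb was not detectable at this depth.

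**Figure D1:**
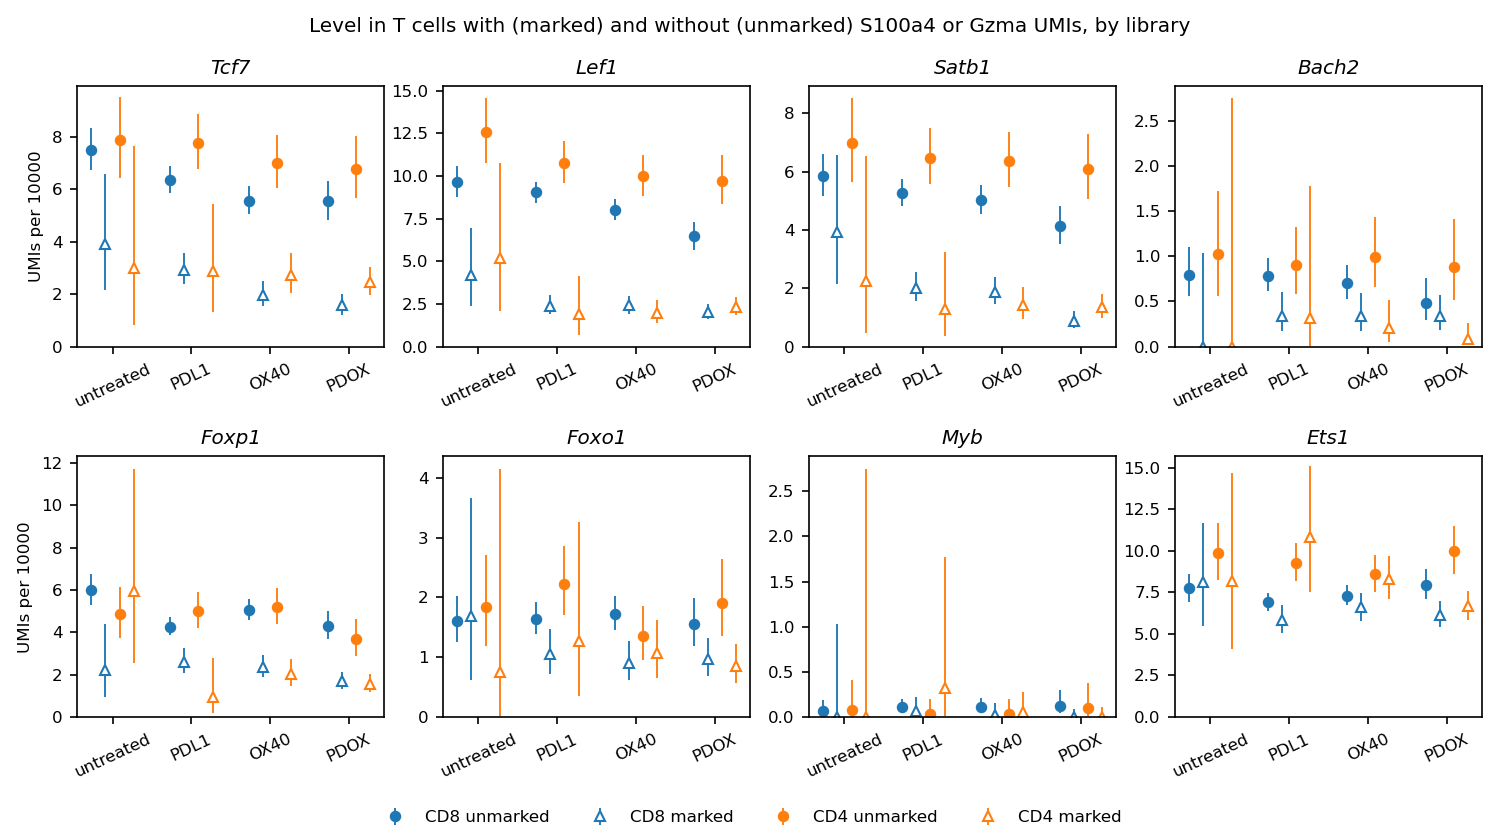
Level of each of the 8 factors (UMIs per 10000 UMIs, 1 panel per gene with its own axis from 0) in the 4 libraries, for CD8 (blue) and CD4 (orange) T cells, unmarked (filled circles) and marked by S100a4 or Gzma (open triangles). Bars are 95% Poisson intervals of the counts. Triangles lie under circles of the same color in every library for Tcf7, Lef1 and Satb1, while the symbols of Ets1 intermix.

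CD4 T cells were tested in the PDL1, OX40 and PDOX libraries, since the untreated library held 8 marked CD4 cells and a minimum of 10 was set. Again 6 of 7 members fell and Ets1 did not pass the test, among 3923 genes of which 5.76% were called lower and 5.71% higher. The median log2 fold change of the members was -1.40, against -0.01 over all genes tested.

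Tcf7 stood at 7.77, 6.996 and 6.77 UMIs per 10000 in unmarked CD4 cells of the PDL1, OX40 and PDOX libraries and at 2.86, 2.74 and 2.46 in the marked ones, a log2 fold change of -1.40 ± 0.17 (SE, n = 3 libraries; edgeR adjusted p = 3.2e-09). For Lef1 the corresponding levels were 10.8, 9.98 and 9.72 against 1.91, 1.98 and 2.31, a log2 fold change of -2.21 ± 0.16 (edgeR adjusted p = 5.6e-16). Neither gene's ranges overlapped, and the libraries lay closer together than the 2 subsets.

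Satb1 went from 6.47, 6.36 and 6.10 to 1.27, 1.42 and 1.35 UMIs per 10000 (log2 fold change -2.17 ± 0.19, edgeR adjusted p = 6.5e-13). Bach2 went from 0.899, 0.994 and 0.879 to 0.318, 0.203 and 0.0878, and the marked values rest on 1, 4 and 3 UMIs. Its log2 fold change was -2.59 ± 0.47 (edgeR adjusted p = 4.5e-05). Bach2 passed the low-count filter here only through unmarked cells, where it is higher, so that its call is weak support. The marked CD4 level of Bach2 was near the 0.188 of the monocyte gate, and the size of its fall is known only roughly.

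Foxp1 fell from 5.0, 5.18 and 3.67 to 0.954, 2.03 and 1.55 UMIs per 10000 in marked CD4 cells (log2 fold change -1.38 ± 0.21, edgeR adjusted p = 7.9e-07). Foxo1 stood at 2.23, 1.35 and 1.91 in unmarked and 1.27, 1.07 and 0.849 in marked cells, with a log2 fold change of -0.79 ± 0.26 (edgeR adjusted p = 0.033). The Foxo1 call was lost without the OX40 library (adjusted p = 0.065), without the PDOX library (0.57) and with DESeq2 (0.67).

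Ets1 stood at 9.28, 8.59 and 9.98 UMIs per 10000 in unmarked and 10.8, 8.32 and 6.65 in marked CD4 cells, so that the PDL1 library was higher and the PDOX library lower in marked cells. The log2 fold change was -0.20 ± 0.14 (edgeR adjusted p = 0.40). In the untreated library the 8 marked cells held 4 UMIs of Tcf7, 7 of Lef1, 3 of Satb1 and 8 of Foxp1, and there Foxp1 alone of these 4 was not lower, at 5.96 against 4.85 UMIs per 10000.

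No member passed a test of whether its fall in marked cells differed between CD8 and CD4 cells. In a test of the difference itself over 5738 genes and 3 libraries, 0 of 7 members were called by edgeR, where 6 genes (0.105%) were called in all and 346 had an unadjusted p under 0.05, and DESeq2 called 0 of 7 as well. Among these 346 genes were 3 members, whose CD8 log2 fold change was less negative by 1.69 ± 0.57 for Bach2 (edgeR adjusted p = 0.37), by 0.56 ± 0.24 for Satb1 (adjusted p = 0.65) and by 0.46 ± 0.21 for Lef1 (adjusted p = 0.66). After thinning to 750 UMIs per cell the Satb1 and Lef1 differences turned sign (-0.20 and -0.54).

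**Figure D2:**
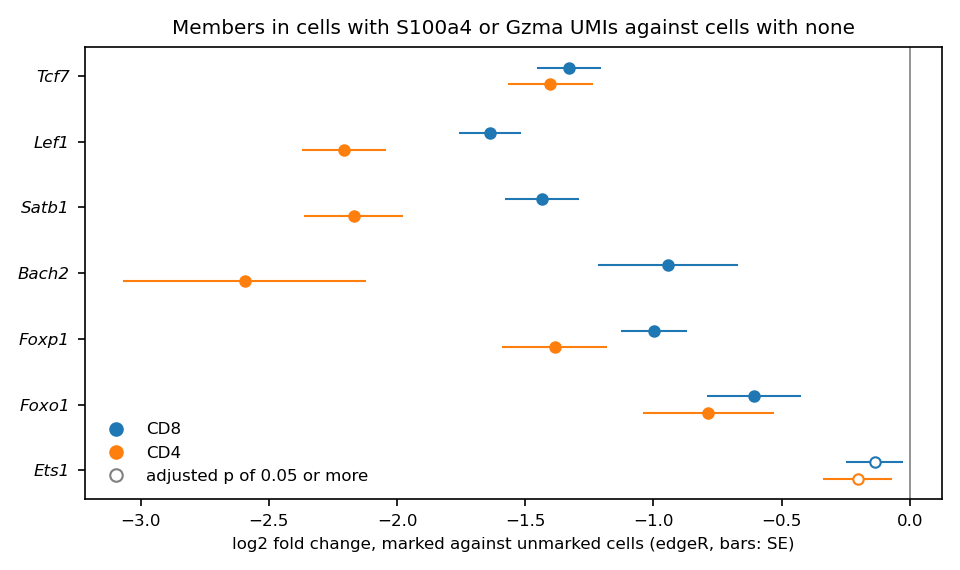
Log2 fold change of the 7 tested factors between marked and unmarked cells, with SE bars, in CD8 (blue, 4 libraries) and CD4 (orange, 3 libraries) T cells. Filled points have an adjusted p under 0.05 and open points do not. Ets1 is the factor with open points in both lineages, and the others lie between -0.61 and -2.59.

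Deeper cells show more genes, and marked cells held more UMIs (a median of 2003 against 1604 in CD8 and 2024.5 against 1475 in CD4 cells). In cells thinned at random to 750 UMIs, with the gates applied afterwards, a Tcf7 UMI was found in 37.1% of unmarked and 14.4% of marked CD8 cells, and a Lef1 UMI in 45.9% and 12.9%. Before thinning the shares were 58.6% and 32.5% for Tcf7 and 67.1% and 34.8% for Lef1. The thinned B cells, which should lack both, showed either in 4.07% of 123 cells, so that the share in marked cells lay above this background. Ets1 was found in 42.6% of unmarked and 36.5% of marked thinned CD8 cells. Thinning left out 115, 111, 196 and 212 cells of the untreated, PDL1, OX40 and PDOX libraries for having fewer than 750 UMIs. Of the 8 factors, a thinned unmarked CD8 cell showed 2.04 on average and a marked one 0.936, and in CD4 cells these means were 2.26 and 1.14.

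Among marked CD8 cells, the 111 with both Gzma and S100a4 stood at 1.41 UMIs per 10000 for Tcf7, 1.52 for Lef1 and 1.02 for Satb1, against 2.08, 2.05 and 1.41 in the 226 with S100a4 alone. The 134 cells with Gzma alone were the highest of the 3 for Tcf7 and Lef1, at 3.38 and 4.02. The libraries differed in direction. The ratio of cells with both to cells with S100a4 alone was 0.344 (0.186 to 0.607) for Tcf7 in PDL1 and 0.499 (0.242 to 0.971) in PDOX, but 2.22 (1.15 to 4.26) in OX40 (95% counting intervals). For Satb1 these ratios were 0.398, 0.435 and 1.71, and for Lef1 0.570, 0.737 and 1.15. With both genes against S100a4 alone, 0 of 6 members were called by edgeR over 3 libraries, where 47 of 2265 genes (2.08%) were called in all and 242 had an unadjusted p under 0.05. DESeq2 called 0 of 6 members and 0 genes in all. Of the members, 1 (Tcf7, fitted lower in cells with both) had an unadjusted p under 0.05 in edgeR.

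Unmarked CD8 and CD4 cells also differed in some of the factors. Lef1 was lower in CD8 than in CD4 cells by a log2 fold change of -0.34 ± 0.07 (edgeR adjusted p = 4.2e-05, n = 4 libraries), Satb1 by -0.32 ± 0.08 (adjusted p = 0.0028) and Ets1 by -0.30 ± 0.07 (adjusted p = 0.0012), and the Tcf7 value of -0.21 ± 0.08 missed the threshold (adjusted p = 0.070). That makes 3 of 7 members lower in a comparison where 4.44% of 4844 genes were called lower. The Ets1 call was lost without the PDL1 library (adjusted p = 0.053) and the Satb1 call without the PDOX library (0.052), and with DESeq2, without the library block or after thinning none of the 3 was called.

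Of the genes that FOXO1 and KLF2 are known to drive, 4 are given here, and all 4 fell in marked CD8 cells. They were the homing receptor Ccr7 (log2 fold change -1.51 ± 0.14), the cytokine receptor chain Il7r (-0.81 ± 0.14), the factor Klf2 (-0.64 ± 0.11) and S1pr1, a receptor for exit from lymphoid organs (-0.63 ± 0.13), and the highest of their edgeR adjusted p-values was 0.00047, that of S1pr1. In CD4 cells S1pr1 (-0.60 ± 0.18) and Il7r (-0.53 ± 0.17) fell, while Ccr7 (-1.64 ± 0.79, edgeR adjusted p = 0.43) and Klf2 (-0.28 ± 0.11, adjusted p = 0.076) did not pass the test.

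Factors of effector T cells went the opposite way. Of the 7 tested in CD8 cells 6 rose, namely Bhlhe40 (3.55), Zeb2 (3.40), Id2 (2.38), Rora (2.21), Batf (1.10) and Eomes (0.80, all log2 fold changes), and Runx3 did not pass the test (0.32, edgeR adjusted p = 0.12). In CD4 cells 4 of 5 rose, namely Bhlhe40 (3.79), Id2 (2.25), Rora (1.89) and Runx3 (0.80), and Batf did not pass the test (0.51, adjusted p = 0.28). The list's medians were 2.21 in CD8 and 1.89 in CD4 cells, against -0.02 and -0.01 over all genes tested. Of all genes 9.6% were called higher in marked CD8 and 5.71% in marked CD4 cells.

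Relatives and partners of the factors are read against the 8.6% lower and 9.6% higher of all genes in CD8 cells and the 5.76% and 5.71% in CD4 cells. Of the 14 family members 4 could be tested in CD8 cells, where the ETS-family gene Elf1 fell (-0.40 ± 0.15, edgeR adjusted p = 0.049), and 4 in CD4 cells, where Foxp4 rose (1.21 ± 0.42, adjusted p = 0.048). The medians were -0.12 and 0.90. Foxp3, the factor of regulatory T cells, gave 1.55 ± 0.62 in marked CD4 cells and did not pass the test (adjusted p = 0.10). Of 13 partners and co-repressors 11 were tested in CD8 cells, where Gata3 rose (0.78 ± 0.20, adjusted p = 0.0044), none fell, and the median was 0.03. In CD4 cells 10 were tested, Gata3 rose (1.49 ± 0.24), and Zeb1 (-1.35), Ikzf1 (-0.67) and Bcl11b (-0.50), zinc-finger factors of lymphoid cells, fell, with a median of -0.28. Ctnnb1, which encodes beta-catenin, and the Groucho genes tested passed the test in neither lineage.

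The gates of other cells in these libraries were small, with 131 B, 62 NK and 89 monocyte cells, and each was compared with the 2206 unmarked T cells in the libraries with at least 10 cells. A level given as 1 value for a gate or for unmarked T cells is pooled over all 4 libraries, while the fold changes rest on 3. Cd74 stood at 320 UMIs per 10000 in the B gate, Tyrobp at 56.7 in the NK gate and Lyz2 at 295 in the monocyte gate. The B gate also held Lyz2 at 14.7 (against 1.27 in unmarked CD8 cells), Tyrobp at 2.47, and the platelet genes Pf4 and Ppbp at 5.44 and 4.54. Lck stood at 7.38 in the NK gate, and whether NK cells or other cells gave it was not tested. What cells of another type add to the values of the gates was not tested.

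B cells lacked most Tcf7 and Lef1, while Foxp1 and Bach2 rose in them. Tcf7 stood at 0.729 UMIs per 10000 in pooled B cells against 6.47 in unmarked T cells (log2 fold change -3.28 ± 0.30, edgeR adjusted p = 8.5e-11, n = 3 libraries), and Lef1 at 0.448 against 8.98 (-4.37 ± 0.31, adjusted p = 2.7e-13). Satb1 was lower too, at 1.74 against 5.46 (-1.54 ± 0.24, adjusted p = 8.5e-06). Together 3 of 7 members were called lower and 2 higher, where 8.81% and 7.86% of 4935 genes were.

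Foxp1, which is also needed in B cells, stood at 9.10, 9.92, 8.12 and 8.26 UMIs per 10000 in B cells of the untreated, PDL1, OX40 and PDOX libraries, against 4.80 in pooled unmarked T cells (log2 fold change 0.998 ± 0.18, edgeR adjusted p = 4.7e-05; 0.084 without the PDL1 library). Every library's B cells lay above the unmarked CD8 and CD4 cells of all 4 libraries. Bach2, a known regulator of B cell fate, was at 1.46 against 0.771 (1.03 ± 0.36, adjusted p = 0.048), and it lost the call without the PDL1 library (adjusted p = 0.46), without the PDOX library (0.33) and under 4 other settings. Ets1 was at 7.12 in B cells against 7.83 (-0.13 ± 0.17, adjusted p = 0.73) and Foxo1 at 1.46 against 1.69 (-0.15 ± 0.32, adjusted p = 0.84).

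In NK cells, lymphocytes without a rearranged antigen receptor, 6 of 7 members were called lower, where 7.47% of 4861 genes were. Tcf7 stood at 0.467 UMIs per 10000 (log2 fold change -3.65 ± 0.44, edgeR adjusted p = 3.7e-15, n = 3 libraries), Lef1 at 0.935 (-3.11 ± 0.35), Satb1 at 1.68 (-1.75 ± 0.33) and Foxp1 at 1.68 (-1.64 ± 0.34).

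Foxo1 stood at 0.467 in NK cells (-1.72 ± 0.56, edgeR adjusted p = 0.022), a call lost without the untreated (adjusted p = 0.14), the OX40 (0.20) or the PDOX library (0.068). Bach2 had no UMI among the 96541 of the 3 libraries tested, and set against 3 UMIs over these libraries it was at least 2.42-fold lower than in unmarked T cells. It passed the low-count filter through unmarked T cells only and could only come out lower, and it is among the 6 members called. The Bach2 call was lost without the OX40 (adjusted p = 0.25) or the untreated library (0.059). Ets1 was at 5.50, 6.69, 8.02 and 2.36 UMIs per 10000 in NK cells of the untreated, PDL1, OX40 and PDOX libraries, and its log2 fold change of -0.58 ± 0.24 did not pass the test (edgeR adjusted p = 0.097). Without the OX40 library, the highest of the 4, it was -1.40 and was called (adjusted p = 0.021). That fit rests on 11 and 6 Ets1 UMIs in NK cells of the untreated and PDOX libraries. The PDL1 library, with 7 UMIs in 5 NK cells, was in neither fit.

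Monocytes, which are no lymphocytes, were lower in all 7 members tested, where 14.6% of 5274 genes were called lower. Tcf7 stood at 0.452, Lef1 at 0.188, Satb1 at 0.339 and Ets1 at 0.527 UMIs per 10000, with log2 fold changes of -3.90 ± 0.36, -5.17 ± 0.40, -3.80 ± 0.37 and -3.55 ± 0.33 (SE, n = 3 libraries; the highest edgeR adjusted p of the 4 was 8.8e-22). Foxo1 was at 0.376 (-1.84 ± 0.43, adjusted p = 0.00015). Foxp1 was at 2.15 (-0.88 ± 0.25, adjusted p = 0.0022), and Bach2 was at 0.188 (-1.59 ± 0.62, adjusted p = 0.036). Foxp1 lost the call without the PDL1 (adjusted p = 0.12) or PDOX library (0.14), and Bach2 likewise (0.75 and 0.10).

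**Figure D3:**
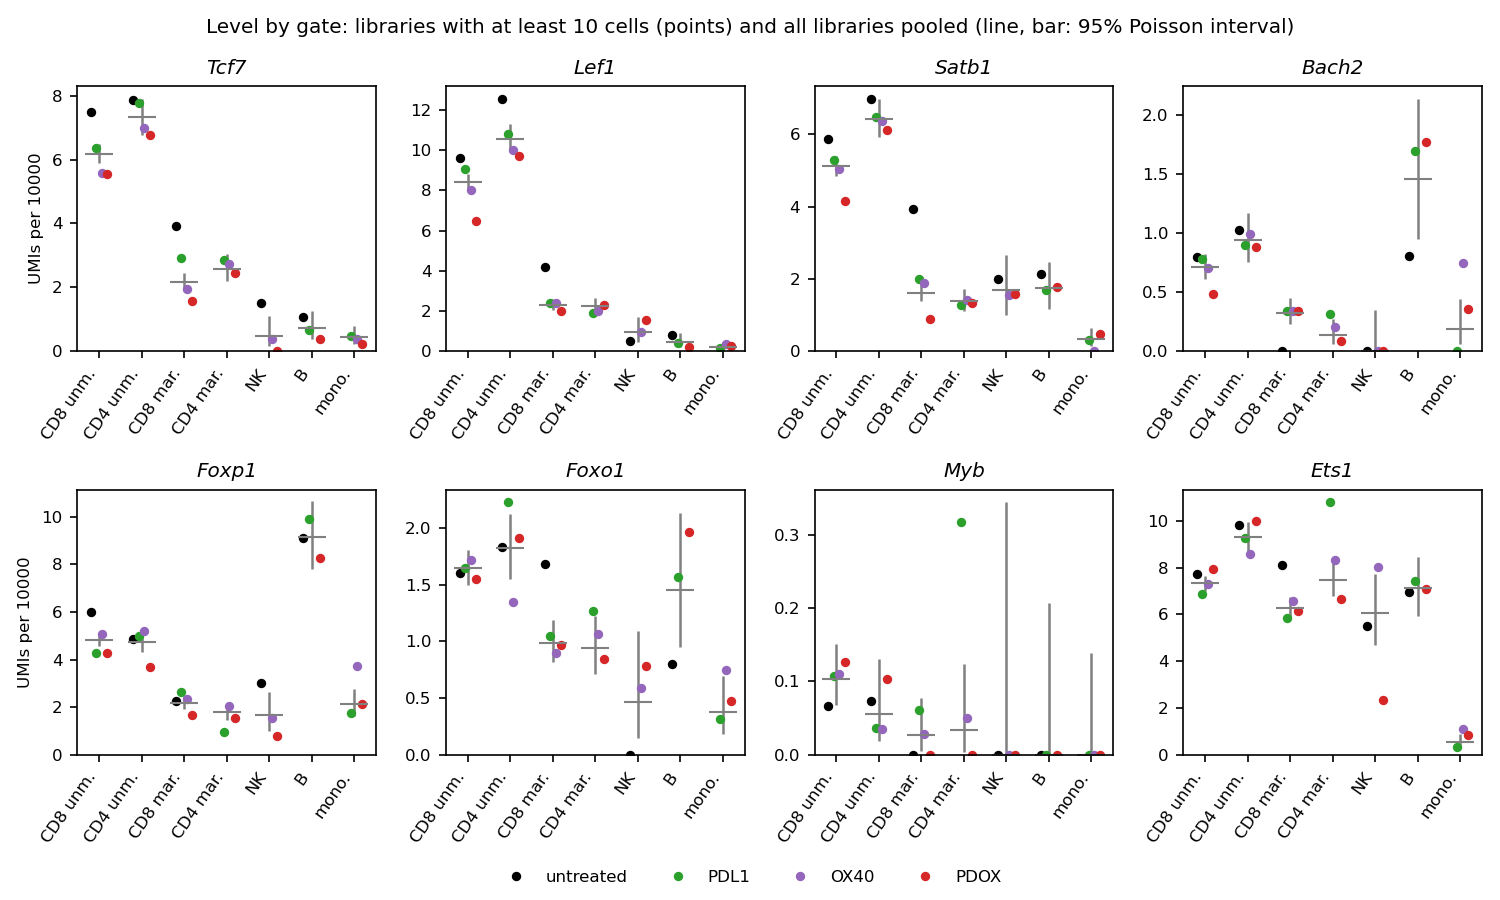
Level of each factor (UMIs per 10000 UMIs, own axis from 0 per panel) in unmarked and marked CD8 and CD4 T cells and in the NK, B and monocyte gates. Points are libraries with at least 10 cells (untreated black, PDL1 green, OX40 purple, PDOX red), and the grey line with its bar is the level over all libraries pooled with its 95% Poisson interval. Pooled Tcf7 and Lef1 are under 1 in the NK, B and monocyte gates, Foxp1 is highest in B cells, and Ets1 is at 0.527 in monocytes.

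The treated libraries were set beside the untreated library with no test, since each is 1 mouse. The share of marked cells was 6.01% (95% exact interval 3.66% to 9.23%) of CD8 cells in the untreated library, 15.2% in PDL1, 23.5% in OX40 and 43.5% (38.8% to 48.2%) in PDOX, and 8.08%, 7.65%, 30.8% and 54.8% of CD4 cells. Ratios of a factor's level are given with 95% intervals that cover counting error only. A member is counted as lower when it has at least 50 UMIs in the pair and stands at least 1.5-fold below the untreated library.

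Over all CD8 cells 5 of 7 members were lower in PDOX by this limit, where 13.1% of genes were. The ratios were 0.484 (0.413 to 0.568) for Tcf7, 0.452 (0.391 to 0.521) for Lef1, 0.433 (0.359 to 0.521) for Satb1, 0.517 (0.433 to 0.617) for Foxp1 and 0.555 (0.336 to 0.916) for Bach2. Foxo1 at 0.775 (0.571 to 1.05) and Ets1 at 0.906 (0.794 to 1.03) stayed inside the limit. The median log2 ratio of the 7 was -0.95, against -0.06 over all genes.

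In OX40 CD8 cells 1 of 7 passed the limit, Tcf7 at 0.618, where 8.6% of genes did, and in PDL1 CD8 cells 0 of 7 passed it, where 6.73% did. Tcf7 thus stood at 7.23, 5.47, 4.47 and 3.502 UMIs per 10000 over all CD8 cells of the untreated, PDL1, OX40 and PDOX libraries, and Lef1 at 9.23, 7.33, 6.32 and 4.17. Over all CD4 cells Tcf7 stood at 7.42, 7.27, 5.24 and 4.02 and Lef1 at 11.9, 9.89, 6.68 and 4.99. The levels went down in this order of libraries in both lineages. In CD4 cells the PDL1 ratios to untreated had intervals that include 1, at 0.980 (0.777 to 1.24) for Tcf7 and 0.831 (0.689 to 1.005) for Lef1. The share of marked cells went up in this order in CD8 cells but was 8.08% in untreated and 7.65% in PDL1 CD4 cells.

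Over all CD4 cells 4 of 6 members were lower in PDOX, where 10.3% of genes were, with ratios of 0.542 (0.429 to 0.688) for Tcf7, 0.420 (0.346 to 0.510) for Lef1, 0.468 (0.362 to 0.607) for Satb1 and 0.469 (0.349 to 0.634) for Foxp1. Foxo1 was at 0.710 and Ets1 at 0.810, and Bach2, with 34 UMIs in the pair, was not counted. In OX40, Lef1 at 0.562 and Satb1 at 0.660 passed the limit, 2 of 6 against 7.73% of genes, and in PDL1 0 of 6 did, against 5.18%. The median log2 ratio of the 6 in PDOX was -0.99, against 0.11 over all genes.

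Within unmarked cells the ratios of Tcf7, Lef1, Satb1 and Foxp1 lay nearer to 1 than over all cells. In unmarked CD8 cells of PDOX they were 0.740 (0.621 to 0.879) for Tcf7, 0.671 (0.572 to 0.784) for Lef1, 0.707 (0.578 to 0.862) for Satb1, 0.717 (0.588 to 0.872) for Foxp1, 0.964 for Foxo1 and 1.03 for Ets1. Bach2 at 0.609 (0.330 to 1.09) was the 1 of 7 past the limit, where 8.32% of genes were, and its interval includes 1. In unmarked CD4 cells 0 of 6 passed it, where 6.03% did, and the lowest ratios were 0.757 (0.534 to 1.08) for Foxp1 and 0.774 (0.626 to 0.958) for Lef1. The median log2 ratio of the members was -0.48 in unmarked CD8 cells, against -0.03 over all genes, and -0.20 in unmarked CD4 cells, against 0.11.

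In marked CD8 cells, of which the untreated library held 19, the PDOX ratios were 0.399 (0.222 to 0.771) for Tcf7, 0.476 (0.273 to 0.889) for Lef1 and 0.227 (0.120 to 0.455) for Satb1, on 14, 15 and 14 untreated UMIs. These 3 lay further from 1 than in unmarked CD8 cells, with intervals that overlap for Tcf7 and Lef1 and not for Satb1. The marked cells also differed in make-up, since 11 of 19 in untreated and 46 of 196 in PDOX held Gzma alone. Pooled Satb1 stood at 2.90 UMIs per 10000 in cells with Gzma alone, 1.41 with S100a4 alone and 1.02 with both. The part of this make-up in the ratios was not tested. Foxp1 at 0.753 (0.362 to 1.81) and Ets1 at 0.756 (0.514 to 1.15) had intervals that include 1. In marked CD4 cells, 8 in the untreated library, the ratios were 0.826 (0.311 to 3.10) for Tcf7, 0.444 (0.206 to 1.14) for Lef1 and 0.261 (0.123 to 0.635) for Foxp1, on 4, 7 and 8 untreated UMIs.

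Unmarked cells were not free of effector transcripts. Ccl5, Nkg7 and Lgals1, genes of activated and cytotoxic T cells, summed to 37.2, 37.3, 77.1 and 123 UMIs per 10000 in unmarked CD8 cells of the untreated, PDL1, OX40 and PDOX libraries and to 3.82, 6.69, 14.5 and 26.1 in unmarked CD4 cells. The 9 effector factors together went from 6.08, 5.18 and 6.63 to 7.90 in unmarked CD8 cells and from 3.16, 3.74 and 6.04 to 6.77 in unmarked CD4 cells. Their part in the lower factor levels of unmarked PDOX cells was not tested.

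Each library's marked and unmarked levels were also weighted with the untreated library's share of marked UMIs, 7.29% in CD8 cells, where marked cells gave 51.3% of the UMIs of PDOX. The PDOX level of Tcf7 in CD8 cells then went from 3.502 to 5.25 UMIs per 10000, a ratio to untreated of 0.726 in place of 0.484. For Lef1 the ratio became 0.664, for Satb1 0.683, for Foxp1 0.718 and for Ets1 1.01. In CD4 cells the weighted ratios were 0.861 for Tcf7, 0.761 for Lef1, 0.866 for Satb1, 0.704 for Foxp1 and 0.999 for Ets1.

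**Figure D4:**
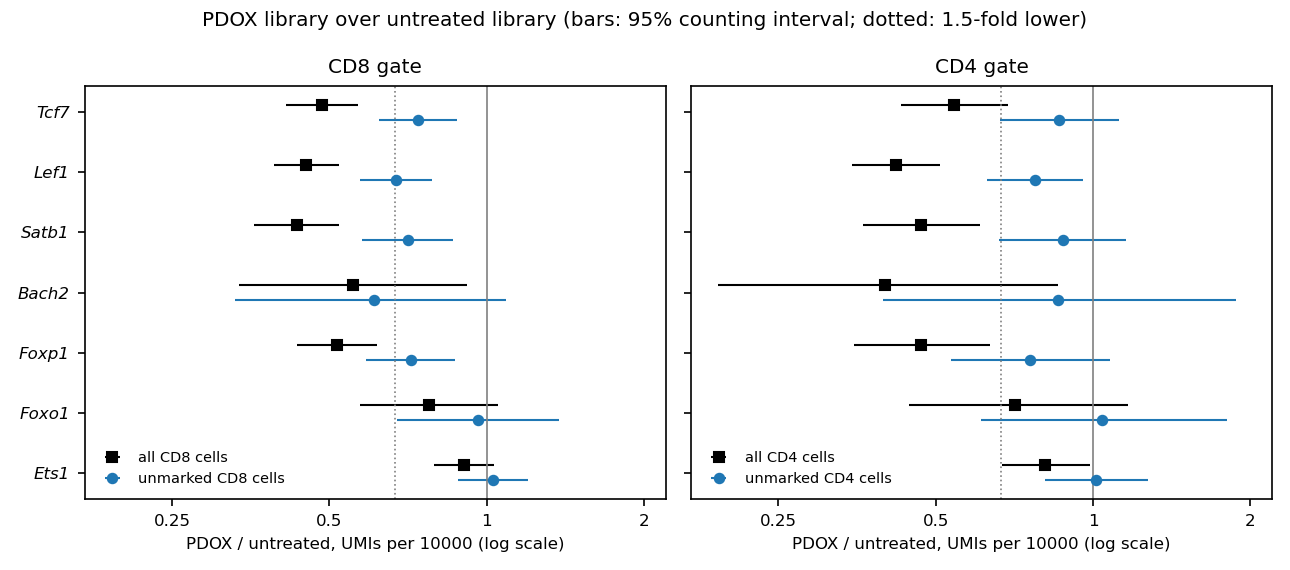
Ratio of each factor's level in the PDOX to the untreated library (log axis) over all cells (black squares) and unmarked cells (blue circles) of the CD8 and CD4 lineages. Bars are 95% counting intervals of 1 library against 1, and the dotted line marks 1.5-fold lower. Tcf7, Lef1, Satb1 and Foxp1 lie left of the line over all cells and right of it in unmarked cells.

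Across 24 profiles of a library and subset with at least 10 cells, likeness was measured as Pearson's r of log2 levels over 1952 genes with at least 500 UMIs. The profiles were those of marked and unmarked CD8 and CD4 cells and of the B, NK and monocyte gates. A high r can therefore follow differences between cell types and is no measure of likeness within T cells. The profiles share libraries and differ in depth, so these values describe the libraries at hand. Among the members, Tcf7 and Lef1 had an r of 0.839, Lef1 and Satb1 0.799, and Bach2 and Foxp1 0.780. The genes most like Tcf7 were Bcl11b (0.927), Mgst2 (0.922) and Tpt1 (0.901). Lef1 was most like Tpt1 (0.912), Il7r (0.904) and Ppia (0.897), and Satb1 most like Sun2 (0.940), Smc4 (0.893) and Tet3 (0.891).

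Foxp1 was most like Eif4a2 (0.849), Tsc22d3 (0.821) and Chd2 (0.818), Foxo1 most like Acin1 (0.906), Nsmce1 (0.898) and Kcnq1ot1 (0.892), and Bach2 most like Ppp1r15a (0.786), Foxp1 and Srsf6 (0.766). For Ets1 the list was Jakmip1 (0.933), Gimap3 (0.926) and Ptprcap (0.907). Myb, with 37 UMIs, gave the lowest top value, 0.758.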

How the data were processed

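Single-cell 3′ RNA libraries were sequenced from 4 mice, and the authors deposited raw counts of UMIs per gene and cell made with Cell Ranger on mm10; the submitters' processing notes also name Seurat 2. The annotation and the rule for calling cells are not given in the sources used here. Cells with at least 200 genes were kept, no doublet caller was run, and 13 mitochondrial, 102 ribosomal protein and 10 hemoglobin genes were left out. T cells needed a Cd3 UMI and fewer than 2 B or monocyte markers, and other gates needed at least 2 markers and no Cd3 UMI. For each library, subsets of at least 10 cells were added up into 1 profile each and tested in R 4.3.3 with edgeR 4.0.16 (TMM scaling, low-count filter, quasi-likelihood, library as block), after a test on simulated data, with calls at an adjusted p under 0.05. The low-count filter kept a gene with enough UMIs in either subset, so that a member could enter a test through the subset where it is higher. DESeq2 1.42.0, other scalings, filters, gates, thinning and each library left out were alternatives. Treatments were compared as ratios in Python 3.11.15, with exact binomial or Poisson intervals that cover counting error only. Total deposited UMIs per library ranged from 2392650 to 4969885. With the library as a block, p-values weigh a difference between subsets against how much it varied from library to library. The libraries came from differently treated mice. The members, 4 gene lists and gates were chosen with earlier results of these data known. The genes named were all 8 members, members of the 4 lists, and the 3 genes most like each member. A gene of the list of FOXO1 and KLF2 targets is not reported here, and no count or median over that list is given. Marker and check genes were named for the gates. Sequences are from RefSeq on GRCm38.p6.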

Additional observations from a re-analysis of the deposited data

How the results depend on the processing

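Of the counts of members called or past the fold limit, 126 values under alternatives stayed within 1.5 times the reported count and 10 moved. The cause was not tested for any of these. Members called in B cells were 3 to 5 with each library left out (3 without the PDL1 library), where 286 to 742 of all genes were called. With CD4 cells marked by Gzma, whether or not they held S100a4, 2 of 6 members were called over 2 libraries. In that fit 27 of 4197 genes were called. Of the members lower in unmarked CD8 than CD4 cells, 0 were called with DESeq2, with no library block and after thinning, and 2 to 3 with each library left out. Of all genes, 115 of 4844, 232 of 4844 and 162 of 2191 were called under the first settings, in either direction. With each library left out 266 to 443 genes were called. In unmarked CD8 cells of PDOX 0 members were lower without the 5% of cells with the most UMIs, 2 after thinning and 5 at the lower fold limit tried, and in unmarked CD4 cells 2 were lower after thinning and 2 at that limit. A lower limit lets more of all genes pass. The share of all genes past the limit under these settings is not given here, so these counts are no result about the members. With each library left out, members called were 4 to 6 in marked CD8, 5 to 6 in marked CD4, 4 to 5 in NK and 5 to 7 in monocyte cells. All genes called in these fits, in either direction, were 333 to 1146, 213 to 535, 248 to 477 and 870 to 1751. DESeq2 called 4, 5, 4, 4 and 5 members in marked CD8, marked CD4, B, NK and monocyte cells, within 1.5 times the reported counts. In all it called 435 of 5325, 130 of 3923, 432 of 4935, 270 of 4861 and 1018 of 5274 genes there. With edgeR 969, 450, 823, 602 and 1696 of the same genes were called.

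Of the single values 639 kept their call, 52 were weaker, 4 stronger, 7 moved and 7 reversed. The reversed log2 values were those of Ets1 (0.10) and Foxo1 (0.37) in thinned B cells, Foxo1 in B cells without the untreated library (0.040, leave-one-out range -0.41 to 0.040), Ets1 in marked CD4 cells without the PDOX library (0.020, range -0.30 to 0.020), and the CD8 minus CD4 difference of Lef1 with marking by 2 UMIs (-0.033) or after thinning (-0.54) and of Satb1 after thinning (-0.20). None of these 7 was past the threshold before or after. The comparisons of libraries with at least 5 cells per subset were chosen after seeing the data. Treatments could not be tested, because each is 1 library. Subsets of the same library were paired by taking the library as a block. The fit with no library block called 6 members in marked CD8 and 6 in marked CD4 cells, where 791 of 5325 and 412 of 3923 genes were called. Bach2, Foxo1 and Myb are limited by depth.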

Other observations

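Cycling T cells, gated on proliferation genes, numbered 36 over the 4 libraries (1, 15, 10 and 10 in untreated, PDL1, OX40 and PDOX) and held a median of 4860 UMIs. Their pooled levels were 1.07 UMIs per 10000 for Tcf7, 0.981 for Lef1, 0.701 for Satb1 and 1.03 for Foxp1, and Ets1 stood at 5.04. Pooled marked CD8 cells, for which Tcf7 stood at 2.16, include cycling ones. Myb gave 3 UMIs there, or 0.140 per 10000 (95% Poisson interval 0.0289 to 0.409). The gate takes in cells of both lineages, and no test was run on it.

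Of the relatives of the factors, Tcf7l2 gave 21 UMIs in the 89 monocytes (0.790 per 10000) against 6 in the 1614 unmarked CD8 cells (0.0231), and Bach1 gave 26 in monocytes (0.978) against 46 (0.177). Among the 592 unmarked CD4 cells 9 held a Foxp3 UMI (1, 2, 1 and 5 per library), and a comparison of these with the rest could not be fitted. Their 2 Tcf7 UMIs give 1.48 per 10000, with a 95% Poisson interval of 0.179 to 5.35, against 7.41 in the other 583 cells.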
